A study of Mus musculus with 12 samples.

Results

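The genes of plasminogen activation and of the local control of clotting were followed in wounded skin of diabetic mice. Genes were taken by symbol, and the 9 members were urokinase (Plau), its receptor (Plaur), tissue plasminogen activator (Plat), the inhibitors Serpine2 and Serpinb2, tissue factor (F3), tissue factor pathway inhibitor (Tfpi), thrombomodulin (Thbd) and the endothelial protein C receptor (Procr). All 9 were found among the 29956 named genes, and all 9 stood among the 18218 genes that passed the filter on low counts.

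Every mouse carried the genotype B6.BKS(D)-Leprdb/db, in which loss of the leptin receptor leads to obesity and diabetes, and punch wounds through the full skin were made in the back. Wounds were given live Alcaligenes faecalis or Staphylococcus aureus in buffered saline, or buffered saline with glycerol as vehicle, and skin was taken on day 3. Glycerol is named for the vehicle only, so its effect and that of lacking bacteria cannot be told apart. There were 4 libraries per treatment, the labels do not say that each came from its own mouse, and p-values measure only the spread between these samples. The sources used here give neither age nor sex. Lean mice and unwounded skin were not analysed here, so no level below is set against a healthy baseline.

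Plasmin dissolves fibrin and helps migrating keratinocytes and leukocytes to cut through the provisional matrix of a wound. It is cut from plasminogen by urokinase, which acts at the cell surface when bound to its receptor, or by tissue plasminogen activator, which acts mainly on fibrin. Clotting is started by tissue factor with factor VII, is restrained at that step by tissue factor pathway inhibitor, and is restrained further downstream by thrombomodulin and the endothelial protein C receptor, which together turn thrombin towards activation of protein C.

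Library totals ranged from 38.4 to 71.3 M (mega) estimated counts. Levels are given as CPM, counts per M of the library size after TMM scaling (trimmed mean of M-values), as mean ± SD. A gene was called when its adjusted p was under 0.05 in edgeR's quasi-likelihood test over all genes tested. Skin markers were present in all libraries, the summed level of 8 keratinocyte markers being 597 to 2530 CPM and that of 6 fibroblast markers 10449 to 18645 CPM, although Epcam was listed at 0 in all 12. Vehicle replicate 3 had 6537 CPM of 6 adipocyte markers, where the other 11 libraries had 1114 to 2731 CPM. In whole-tissue RNA, fewer cells of a type and less RNA per cell cannot be told apart.

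With S. aureus, 2 of the 9 genes rose against vehicle, Plaur and Thbd, and none fell. Of all genes tested, 3.87% were called higher in that comparison, 2.97% lower and 6.84% in either direction. Against A. faecalis, 3 of the 9 were higher with S. aureus, namely Plaur, Thbd and F3, beside 7.62% of all genes called higher, 5.06% lower and 12.7% in either direction. Between A. faecalis and vehicle, edgeR, DESeq2 and limma-voom each called 0 of the 9, beside 0.011% of all genes called by edgeR. Plau and F3 were the 2 members with an edgeR p under 0.05 before adjustment, beside 7.68% of all genes, and the 2 groups overlapped in all 9 members, beside 4.05% of all genes without overlap. The median log2 fold change of the 9 was -0.24 for A. faecalis against vehicle, 0.31 for S. aureus against vehicle and 0.55 for S. aureus against A. faecalis, where all genes tested had medians of -0.03, -0.04 and -0.02. The 3 comparisons share libraries and are not independent.

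**Figure D1:**
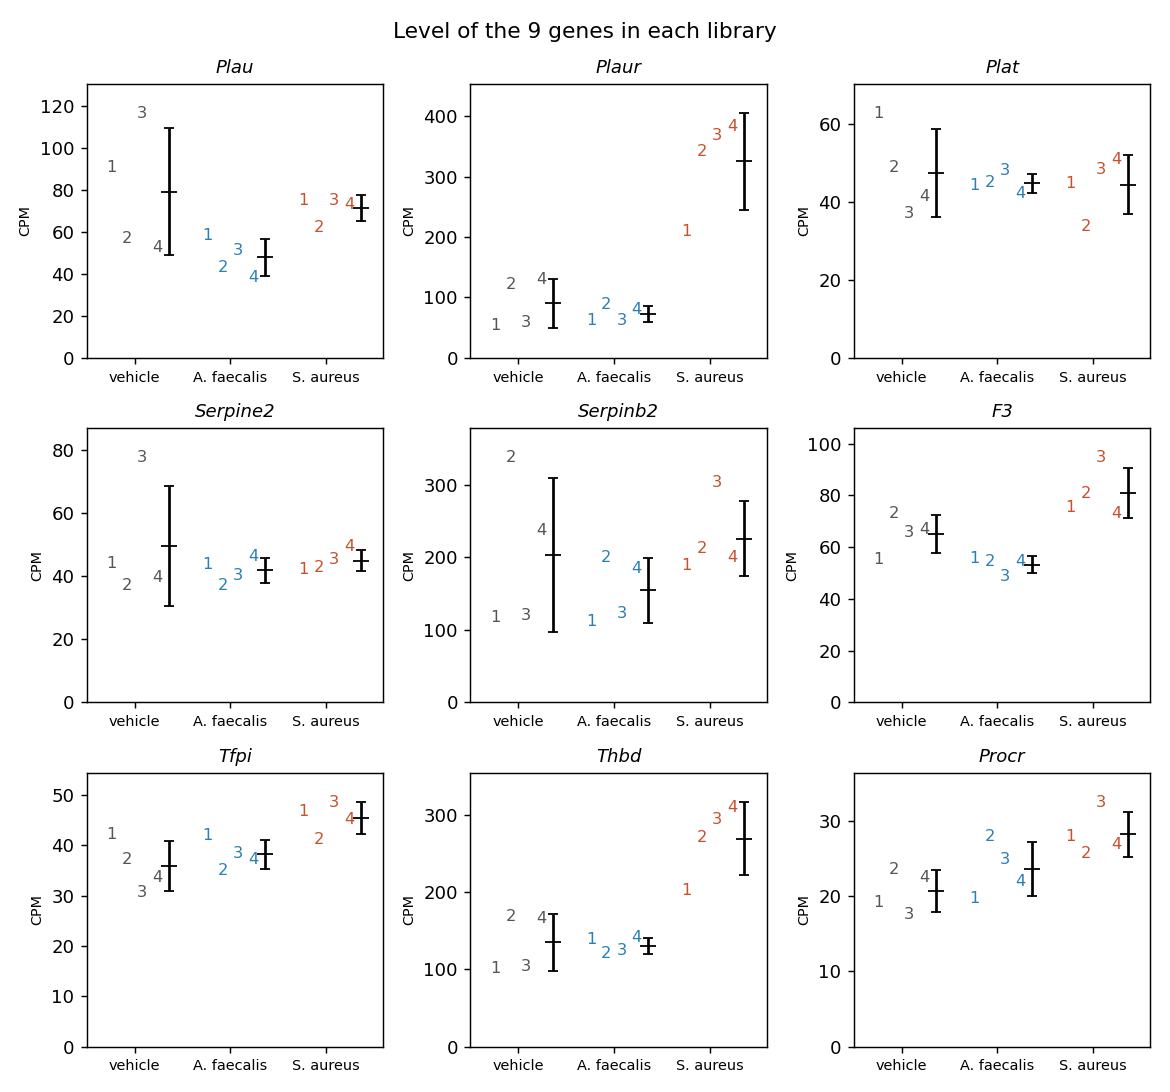
Level of each of the 9 genes in CPM (linear axis from 0) in the 12 libraries, grouped by treatment. Digits are the replicate numbers, and the bar beside each group is the mean ± SD of its 4 libraries. For Plaur and Thbd the 4 S. aureus libraries sit above all other libraries, from 209 and 202 CPM upwards.

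Among the receptors and enzymes that make plasmin, Plaur had the largest difference of the 9 genes. It encodes the urokinase receptor, a lipid-anchored surface protein of leukocytes and of keratinocytes at the wound margin. Its levels in vehicle replicates 1 to 4 were 52.9, 122, 58.7 and 129 CPM. With A. faecalis they were 61.6, 87.9, 61.5 and 80.3 CPM, and with S. aureus 209, 341, 369 and 384 CPM. The lowest S. aureus library thus stood above the highest of the other 8, while vehicle and A. faecalis overlapped. The mean was 325 ± 79.9 CPM (SD, n = 4) with S. aureus, 90.6 ± 40.3 CPM with vehicle and 72.8 ± 13.4 CPM with A. faecalis. Plaur rose with S. aureus, the log2 fold change being 1.85 against vehicle (SE 0.306, adjusted p = 0.0107) and 2.16 against A. faecalis (SE 0.31, adjusted p = 0.002). Both calls held in all 12 fits that left out 1 library, with log2 fold changes of 1.68 to 2.07 against vehicle and 2.07 to 2.33 against A. faecalis. Between A. faecalis and vehicle the log2 fold change was -0.31, with a 95% interval from -0.96 to 0.34 (adjusted p = 0.798).

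Plau, the urokinase that binds this receptor, did not follow it. Vehicle libraries held 90.7, 56.8, 117 and 52.7 CPM of Plau. A. faecalis libraries held 58.3, 43.2, 51.3 and 38.5 CPM, and S. aureus libraries 75, 62.2, 74.8 and 73.2 CPM. The 4 A. faecalis libraries were all below the 4 S. aureus libraries, and vehicle replicates 1 and 3 were above all of them. The log2 fold change was -0.73 for A. faecalis against vehicle (95% interval -1.23 to -0.23, adjusted p = 0.527) and -0.47 without vehicle replicate 3. For S. aureus against vehicle it was -0.15 (-0.65 to 0.35, adjusted p = 0.716). For S. aureus against A. faecalis it was 0.58 (SE 0.229, adjusted p = 0.121), and this difference was called without vehicle replicate 3 (adjusted p = 0.045) and when only those 2 groups were fitted (0.0158).

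Plat encodes tissue plasminogen activator, which is made by endothelium and other cells. It was the steadiest of the plasminogen activators, at 47.5 ± 11.3 CPM (SD, n = 4) with vehicle, 44.8 ± 2.42 CPM with A. faecalis and 44.4 ± 7.61 CPM with S. aureus. The groups overlapped, from 37.1 to 62.8, 42.2 to 48 and 33.7 to 50.9 CPM. Its log2 fold changes were -0.08, -0.1 and -0.01 in the 3 comparisons, with 95% intervals within -0.45 to 0.34, and their sign turned when single libraries were left out.

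The inhibitors showed no called difference. Serpine2, or protease nexin-1, inhibits thrombin as well as urokinase. Its level was 37 to 44 CPM in vehicle replicates 1, 2 and 4 and 77.6 CPM in replicate 3, against 37.2 to 46.3 CPM with A. faecalis and 42.2 to 49.3 CPM with S. aureus. The high library is the one with the most adipocyte marker RNA, and without it the log2 fold change of Serpine2 turned from -0.24 to 0.07 for A. faecalis against vehicle and from -0.14 to 0.18 for S. aureus against vehicle. The part of adipose tissue in this was not tested.

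Serpinb2, plasminogen activator inhibitor 2, is a largely intracellular inhibitor of urokinase made by monocytes, macrophages and stratified epithelium. Vehicle replicates 1 to 4 held 117, 338, 120 and 238 CPM. A. faecalis libraries held 111, 200, 122 and 185 CPM, and S. aureus libraries 189, 212, 303 and 200 CPM. Within vehicle and within A. faecalis, replicates 2 and 4 were above replicates 1 and 3, as they were for Plaur. The spread within vehicle (mean 203 ± 106 CPM, n = 4) was wider than any difference between groups, and the 95% interval of the log2 fold change for S. aureus against vehicle ran from -0.57 to 0.89 (adjusted p = 0.806).

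**Figure D2:**
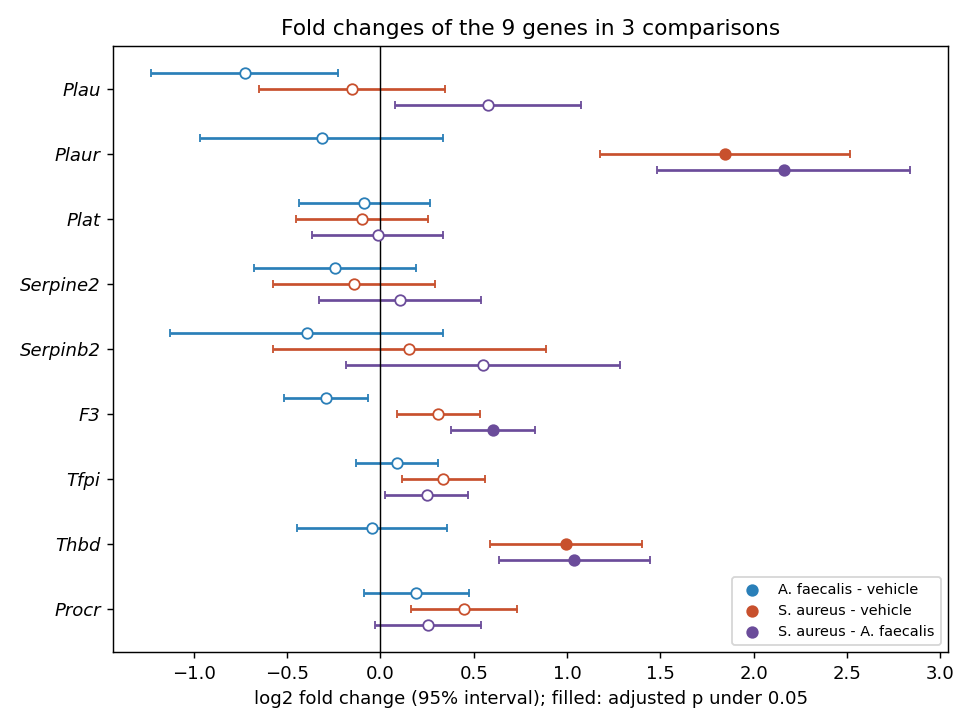
Log2 fold changes of the 9 genes with 95% intervals from edgeR, in 3 comparisons (horizontal axis), with filled points for adjusted p under 0.05. Plaur and Thbd are filled in both comparisons with S. aureus, at 1.85 and 0.995 against vehicle, and F3 is filled in S. aureus against A. faecalis at 0.60.

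Of the genes that start and restrain clotting, Thbd rose. Thrombomodulin is the thrombin receptor of endothelium and is also present on keratinocytes and myeloid cells. Thbd was at 102, 168, 104 and 166 CPM in vehicle replicates 1 to 4. It was at 138, 120, 124 and 141 CPM with A. faecalis and at 202, 271, 293 and 310 CPM with S. aureus. All S. aureus libraries lay above all others, and the A. faecalis libraries lay inside the range of vehicle. Thbd rose with S. aureus, the log2 fold change being 0.995 against vehicle (SE 0.186, adjusted p = 0.0149) and 1.04 against A. faecalis (SE 0.186, adjusted p = 0.00512). The call against vehicle was lost without S. aureus replicate 3 (adjusted p = 0.0503, log2 fold change 0.96) and when only these 2 groups were fitted (adjusted p = 0.0559), and the call against A. faecalis held in all 12 fits. For A. faecalis against vehicle the 95% interval was -0.45 to 0.36.

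F3, tissue factor, was lowest with A. faecalis and highest with S. aureus. Its levels in vehicle replicates 1 to 4 were 55.3, 73, 65.7 and 66.8 CPM. The A. faecalis libraries held 55.6, 54.4, 48.6 and 54.5 CPM, and the S. aureus libraries 75.4, 80.6, 94.6 and 73.1 CPM. Every S. aureus library was above every vehicle library, replicate 4 only just above vehicle replicate 2, and A. faecalis replicate 1 lay just inside the vehicle range. F3 was higher with S. aureus than with A. faecalis, the log2 fold change being 0.60 (SE 0.103, adjusted p = 0.00403), a call that held in all 12 fits with 1 library left out. Against vehicle the log2 fold change was 0.31 for S. aureus (95% interval 0.09 to 0.53, adjusted p = 0.0806) and -0.29 for A. faecalis (-0.51 to -0.07, adjusted p = 0.56), and neither was called by edgeR.

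Tfpi and Procr were not called in any comparison by edgeR. Tfpi, which blocks the complex of tissue factor and factor VII, was at 35.9 ± 4.93 CPM (SD, n = 4) with vehicle, 38.2 ± 2.91 CPM with A. faecalis and 45.4 ± 3.2 CPM with S. aureus. The S. aureus libraries ran from 41.1 to 48.6 CPM and overlapped vehicle replicate 1 at 42.2 CPM. Its log2 fold change for S. aureus against vehicle was 0.34 (SE 0.102, adjusted p = 0.0645). Procr, which presents protein C to thrombin bound by thrombomodulin, was at 19.1, 23.6, 17.6 and 22.4 CPM in vehicle replicates 1 to 4. It was at 27.9, 25.7, 32.5 and 26.8 CPM with S. aureus, without overlap, and at 19.7, 27.9, 24.8 and 22 CPM with A. faecalis. Its log2 fold change for S. aureus against vehicle was 0.45 (SE 0.129, adjusted p = 0.057). DESeq2 called F3, Tfpi and Procr higher with S. aureus against vehicle (adjusted p = 0.0336, 0.0151 and 0.0135). It also called more genes in all, 2876 in that comparison, where edgeR called 1246 of the 18218 tested. In that comparison 4 of the 9 genes (Plaur, Thbd, F3 and Procr) were higher in every S. aureus library than in every vehicle library, beside 7.56% of all genes. Against A. faecalis the same held for 4 of the 9 (Plau, Plaur, Thbd and F3), beside 11.8% of all genes.

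The promoters of Plaur, F3 and Procr are shown because theirs are the member windows that hold a match to the binding motif of AP-1, the Fos and Jun family of injury-response factors. RefSeq windows (build GRCm38.p6) were at hand for 6 of the 9 genes (8 windows), with none for Plau, Plat and Thbd. Each sequence below is the 250 bases before a RefSeq start on the plus strand, 5′ to 3′, with the match to TGACTCA or its reverse complement TGAGTCA in capitals. The windows are chr7:24462233-24462482 for Plaur, chr3:121723287-121723536 for F3 and chr2:155750967-155751216 for Procr.
Plaur: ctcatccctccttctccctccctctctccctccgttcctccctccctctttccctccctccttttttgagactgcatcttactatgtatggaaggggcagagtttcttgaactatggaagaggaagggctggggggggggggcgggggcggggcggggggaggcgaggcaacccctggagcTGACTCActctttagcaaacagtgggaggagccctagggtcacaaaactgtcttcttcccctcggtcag
F3: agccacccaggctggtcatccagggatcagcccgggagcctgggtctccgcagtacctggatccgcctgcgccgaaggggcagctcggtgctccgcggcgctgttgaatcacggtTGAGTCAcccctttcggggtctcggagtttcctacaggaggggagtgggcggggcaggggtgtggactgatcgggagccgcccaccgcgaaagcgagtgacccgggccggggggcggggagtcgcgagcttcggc
Procr: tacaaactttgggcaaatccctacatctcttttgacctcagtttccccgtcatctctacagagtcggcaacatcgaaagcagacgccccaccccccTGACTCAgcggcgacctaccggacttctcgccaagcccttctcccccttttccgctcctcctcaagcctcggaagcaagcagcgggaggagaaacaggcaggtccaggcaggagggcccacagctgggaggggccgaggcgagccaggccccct
The match lay 69 to 63 bases before the start in Plaur, 135 to 129 in F3 and 154 to 148 in Procr. Of the 8 member windows 3 held the motif, and of all 32851 windows of this length 4.46% did. The same windows of Serpine2, Serpinb2 and Tfpi had no match on either strand. The palindrome TGACGTCA and a fixed NF-kB consensus pattern, searched on both strands, were in 0 of the 8 windows. They were in 1.55% and 1.41% of all windows. A site that departs from the fixed NF-kB pattern in a required base was not counted. The 0 therefore does not show that the F3 window, or any other, lacks an NF-kB site. The GC box GGGCGG or its reverse complement was in 5 of the 8 and in 32.7% of all. A match is a match of letters only, and binding was not measured.

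Levels of the 9 members were ranked against each other only after division by the length of the longest protein-coding transcript (GENCODE M21, build GRCm38), as CPM per kilobase. In vehicle wounds the order by mean was Serpinb2 (102), Plaur (60.1), Thbd (36.3), F3 (34.8), Plau (33.8), Serpine2 (22.4), Plat (18.8), Procr (12.9) and Tfpi (9.05). The ranges over the 4 vehicle libraries overlapped between neighbours in this order, such as Serpinb2 and Plaur (58.4 to 169 and 35.1 to 85.6), except for Procr and Tfpi (11 to 14.8 and 7.745 to 10.6). With A. faecalis the order of the means was the same. With S. aureus Plaur came first at 216 CPM per kilobase (139 to 255), with Serpinb2 at 113 (94.7 to 152) and Thbd at 72.3 (54.3 to 83.2). The Plaur and Serpinb2 ranges still overlapped, and those of Serpinb2 and Thbd did not.

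Ratios of 2 members within a library do not depend on library scaling. A set of 7 ratios, chosen after the levels were seen, was tested in the 3 comparisons by two-sided exact permutation tests, in which 4 libraries against 4 cannot give a p below 0.0286. Of the 21 tests 8 reached that value, which is 0.075 after adjustment over the 21, so none passed. The log2 ratio of Plaur to Plau was 2.16 ± 0.457 (SD, n = 4) with S. aureus, 0.16 ± 1.21 with vehicle and 0.61 ± 0.51 with A. faecalis, and the S. aureus values lay above all others. The log2 ratio of Thbd to F3 was 1.72 ± 0.276 with S. aureus, 1.01 ± 0.297 with vehicle and 1.29 ± 0.102 with A. faecalis, again with S. aureus above all others. The log2 ratio of F3 to Tfpi overlapped between S. aureus (0.83 ± 0.159) and vehicle (0.86 ± 0.32), and was lower with A. faecalis (0.48 ± 0.135) than in every S. aureus library.

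Levels of cell type markers are given beside those of the members, and no association between them was tested. The summed level of 8 neutrophil markers was 677 to 7778 CPM with vehicle and 1633 to 3721 CPM with A. faecalis. It was 8228 to 12468 CPM with S. aureus, so the S. aureus libraries stood apart here as for Plaur. S100a8 and S100a9 weighed most in it, at 4031 and 4706 CPM with S. aureus and 1418 and 1970 CPM with vehicle. Neither was called by edgeR against vehicle (adjusted p = 0.113 and 0.222), and the S100a9 groups overlapped there. All 8 had a positive log2 fold change with S. aureus in both comparisons, with 4 of the 8 not overlapping in each. Of the 8 neutrophil markers 1 was called higher with S. aureus against vehicle (Camp) and 4 against A. faecalis (S100a8, S100a9, Ly6g and Cxcr2), and none of the 8 was at 0 in all libraries. With 1 library left out, the Ly6g call held in all 12 fits, while the calls of Camp, S100a8, S100a9 and Cxcr2 were lost in 7, 8, 10 and 6 of them, each without S. aureus replicates 2, 3 or 4 among others. Vehicle replicates 2 and 4, the vehicle libraries with the most Plaur, had 4935 and 7778 CPM of neutrophil markers, and replicates 1 and 3 had 2142 and 677 CPM. The 8 monocyte and macrophage markers, in which abundant genes such as Lyz2 and Mrc1 weigh most, summed to 3610 to 6066 CPM with vehicle, 4458 to 6671 CPM with A. faecalis and 3048 to 3901 CPM with S. aureus. Of the 8, 7 had a negative log2 fold change with S. aureus in both comparisons, with 1 called against vehicle (Emr1) and 2 against A. faecalis (Emr1 and Csf1r). Ly6c2, a marker of inflammatory monocytes, had a positive one, at 116 CPM with S. aureus, 55.3 CPM with vehicle and 58.3 CPM with A. faecalis (1.07 and 0.998, adjusted p = 0.0725 and 0.074), and every S. aureus library was above every vehicle library. The part of leukocyte number in the Plaur result was not tested.

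The summed level of 8 endothelial markers was 912 to 1317 CPM with vehicle, 997 to 1423 CPM with A. faecalis and 1441 to 1600 CPM with S. aureus. In this sum Cdh5 and Pecam1 weighed most, at 570 and 439 CPM with S. aureus and 380 and 333 CPM with vehicle. Against vehicle 7 of the 8 had a positive log2 fold change with S. aureus (median 0.20), and 3 did not overlap. The log2 fold changes of Vwf, Kdr, Egfl7 and Tek were 0.09, 0.09, 0.03 and -0.05. With S. aureus against vehicle 2 of the 8 were called higher, Emcn and Pecam1. Leaving out 1 library ended the Emcn call in 2 of 12 fits (S. aureus replicate 3 or 4) and the Pecam1 call in 9 (all but A. faecalis replicates 1 and 2 and S. aureus replicate 1). Against A. faecalis 1 of the 8 was called higher by edgeR, Emcn (adjusted p = 0.0216), a call lost in 4 of 12 fits. The 4 lymphatic endothelial markers, mostly Pdpn and Lyve1, summed to 184 to 291 CPM with vehicle, 191 to 205 CPM with A. faecalis and 290 to 328 CPM with S. aureus. None was called against vehicle by edgeR, with an unadjusted p under 0.05 in 3 of the 4, while DESeq2 called 1 and limma-voom 0. Against A. faecalis edgeR called 2 of the 4 higher, Lyve1 (adjusted p = 0.00378) and Flt4 (adjusted p = 0.038). The Lyve1 call held in all 12 fits with 1 library left out, and that of Flt4 was lost in 7. Prox1 differed from the sum in direction, with a mean of 4.53 CPM after S. aureus, where vehicle had 8.22 CPM (-0.86 on the log2 scale, adjusted p = 0.0773, groups without overlap). None of the endothelial markers was at 0 in all libraries. Thbd, Procr, Tfpi and Plat are known from endothelium, and the part of vessel content in their levels was not tested. Vehicle replicates 2 and 4, where Thbd was highest within vehicle, had endothelial sums of 1204 and 912 CPM, and replicates 1 and 3 had 1294 and 1317 CPM. Replicates 2 and 4 were also the vehicle libraries with the most neutrophil marker RNA, as given above, and the part of leukocytes in the Thbd level was not tested. Keratinocyte markers summed to 1235 to 1955 CPM with vehicle, 597 to 1144 CPM with A. faecalis and 861 to 2530 CPM with S. aureus. All 7 that were tested had a negative log2 fold change for A. faecalis against vehicle (median -0.72). EdgeR called 0 of these and DESeq2 1, and 4 did not overlap, beside 4.05% of all genes. For S. aureus against A. faecalis 6 were positive and Krt10 was negative. Only Dsg3 was called there (higher, adjusted p = 0.0135, held in all 12 fits), beside 7.62% of all genes called higher. The level of Plau was lower in the A. faecalis libraries than in the S. aureus libraries. Within A. faecalis, replicate 1 had the lowest keratinocyte sum and the highest Plau (597 and 58.3 CPM), and replicate 4 the reverse (1144 and 38.5 CPM). S. aureus replicate 2 had the highest sum and the lowest Plau of its group (2530 and 62.2 CPM). Within vehicle, replicates 1 and 3 were highest in both. The part of epidermal content in the Plau level was not tested.

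**Figure D3:**
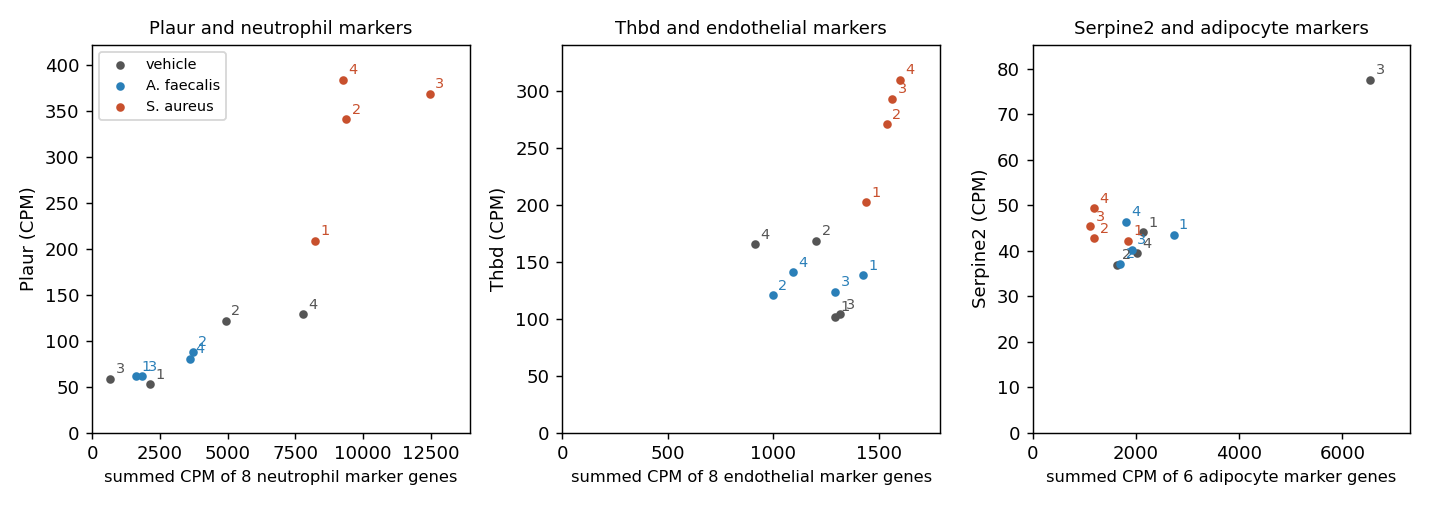
Level in CPM of Plaur, Thbd and Serpine2 (vertical axes) against the summed CPM of neutrophil, endothelial and adipocyte marker genes (horizontal axes), 1 point per library with its replicate number, all axes linear from 0. The S. aureus libraries are at the upper right for Plaur and Thbd, and vehicle replicate 3, at 6537 CPM of adipocyte markers, stands alone for Serpine2.

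The genes whose levels were most like those of each member were taken by the highest Pearson correlation of log2 CPM over the 12 libraries, which differ in treatment, so the treatment is part of the likeness. For Plaur they were Cmtm6, R3hdm4 and Ndel1 (r = 0.991, 0.991 and 0.99). For Thbd they were Xbp1, Preb and Plaur itself (0.988, 0.98 and 0.977), the last being the 1 case of a member among the nearest genes of another. F3 was most like Clec7a, Cntn2 and Slfn4 (0.945, 0.938 and 0.938), the first a fungal pattern receptor of myeloid cells. Plau was most like Slc2a10, Mrc2 and Atp10a (0.964, 0.952 and 0.94). Mrc2, the collagen uptake receptor that associates with the urokinase receptor, stood at 260, 176, 291 and 143 CPM in vehicle replicates 1 to 4, so it shared the high values of replicates 1 and 3.

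Of the remaining members, Tfpi was most like Bmp1, Hist1h2bf and C1qtnf6 (0.944, 0.941 and 0.937), and Procr was most like Cd52, Cd300ld and Gng5 (0.938, 0.916 and 0.913). For Serpinb2 they were Serf2, Malsu1 and Dusp1 (0.911, 0.893 and 0.881), and for Plat Cthrc1, Abi3bp and Gfpt2 (0.861, 0.855 and 0.841). For Serpine2 they were Ppp1r37, Ccser2 and Alg2 (0.942, 0.936 and 0.928), each highest in vehicle replicate 3 like Serpine2.

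Other genes of the pathway were taken from 4 lists with 56 genes, of which 43 passed the filter on low counts. The 13 that did not, at most 0.494 CPM in any library, included plasminogen (Plg), the 3 fibrinogen chains (Fga, Fgb and Fgg) and protein C (Proc), whose proteins come mainly from the liver through the blood. On the plasminogen system list, 18 genes were tested, of which 1 rose and 1 fell with S. aureus against vehicle. Of all genes tested 3.87% were called higher and 2.97% lower in that comparison, and 7.62% and 5.06% against A. faecalis. Serpini1, neuroserpin, an inhibitor of tissue plasminogen activator, stood at 10.8 ± 3.9 CPM after S. aureus, where vehicle libraries had 4.06 ± 1.95 CPM (a log2 difference of 1.41, adjusted p = 0.0342). S100a10, which forms a plasminogen receptor with annexin A2, stood at 138 ± 12.1 CPM after S. aureus, where vehicle libraries had 182 ± 12.3 CPM (-0.40, adjusted p = 0.0341). The Serpini1 call was lost in 5 of the 12 fits with 1 library left out (vehicle replicate 1, 2 or 3, or S. aureus replicate 3 or 4, adjusted p up to 0.108). That of S100a10 was lost in 9 (every library but vehicle replicate 4 and A. faecalis replicates 1 and 4, adjusted p up to 0.106). Against A. faecalis 1 gene was higher with S. aureus (Serpini1, log2 fold change 1.58, adjusted p = 0.013) and 2 were lower (Serpinb8 and Hpn, -0.53 and -0.96), of which Serpinb8 lost its call without A. faecalis replicate 2, 3 or 4 or S. aureus replicate 3 or 4 (adjusted p up to 0.0669). Lrp1, the endocytic receptor that clears urokinase bound to its inhibitors, was at 2947 ± 338, 2600 ± 172 and 2774 ± 119 CPM with vehicle, A. faecalis and S. aureus, and was not called. Eno1 and Anxa2 are a glycolytic enzyme and an annexin that both bind plasminogen at the cell surface. They were next by CPM, here not divided by transcript length (1062 ± 300.3 and 985 ± 66.3 CPM with vehicle), and were not called either. The median log2 fold change of the 18 genes was -0.18 for A. faecalis against vehicle, -0.06 for S. aureus against vehicle and 0.08 for S. aureus against A. faecalis, beside the medians of all genes given above.

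On the clotting cascade list 10 genes were tested, and 3.87% of all genes were called higher with S. aureus against vehicle. Against vehicle 1 rose with S. aureus, Tgm2, tissue transglutaminase, which had 718 ± 100 CPM, where vehicle had 460 ± 66.7 CPM (a log2 difference of 0.64, adjusted p = 0.0181). Leaving out S. aureus replicate 3, or replicate 4, ended that call (adjusted p at most 0.0633). The other 9 genes tested, which include the numbered clotting factors, were not called against vehicle. Against A. faecalis Tgm2 and F5 were higher with S. aureus and F13a1 was lower, beside 7.62% of all genes called higher and 5.06% lower. F5, the cofactor of factor X, stood at 57.1 ± 7.77 CPM with S. aureus, 12.8 ± 3.85 CPM after A. faecalis and 24.2 ± 14.4 CPM after vehicle (2.16 on the log2 scale against A. faecalis, adjusted p = 0.00406, and 1.24 against vehicle, adjusted p = 0.0561). F13a1, the fibrin-crosslinking factor XIII chain carried by macrophages and platelets, stood at 740 ± 63.1, 1320 ± 248 and 958 ± 258 CPM in the same order (log2 fold change -0.84 against A. faecalis, adjusted p = 0.0173, and 0.0542 without A. faecalis replicate 4). The 6 platelet and megakaryocyte markers summed to 229 to 342 CPM with S. aureus, 549 to 655 CPM with A. faecalis and 256 to 1047 CPM with vehicle. That sum was nearly all Pf4 (185 CPM with S. aureus and 390 CPM with A. faecalis, called lower) and Ppbp (93.6 and 198 CPM, not called). The other 3 markers tested had positive log2 fold changes for S. aureus against A. faecalis, none of them called, at 0.78 for Gp9, 0.73 for Gp1bb and 0.14 for Itga2b, the first 2 without overlap. Emr1 and Csf1r, macrophage markers, were also lower with S. aureus than with A. faecalis, by log2 fold changes of -1.43 and -0.97, and the part of macrophages and platelets in the F13a1 result was not tested. F10, factor X, was at 202 ± 80.8 CPM with A. faecalis, 99.1 ± 80.7 CPM with vehicle and 75.2 ± 22.2 CPM with S. aureus, and Vwf, the platelet-tethering protein of endothelium, at 115 ± 15.7, 120 ± 24.3 and 128 ± 26.6 CPM in that order. F7, the partner of tissue factor, was at 25 ± 8.3, 18.7 ± 8.16 and 17.2 ± 5.38 CPM, and none of these was called. The median log2 fold changes of the 10 genes were -0.01, -0.02 and 0.19.

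On the natural anticoagulant list 11 genes were tested, and Entpd1 and Tfpi2 rose with S. aureus in both comparisons. Of all genes tested 3.87% were called higher against vehicle and 7.62% against A. faecalis. Entpd1, or CD39, removes extracellular ATP and ADP and so dampens platelet activation. It was at 550 ± 133 CPM with S. aureus, 199 ± 101 CPM with vehicle and 147 ± 20.5 CPM with A. faecalis (1.47 on the log2 scale against vehicle, adjusted p = 0.0246, and 1.90 against A. faecalis, adjusted p = 0.00408). Tfpi2, a Kunitz inhibitor of plasmin and other serine proteases, was at 37.5 ± 2.22, 21 ± 2.93 and 21.5 ± 7.48 CPM in the same order (0.84, adjusted p = 0.0289, and 0.80, adjusted p = 0.0198). Against vehicle, leaving out 1 library ended the call in 4 of 12 fits for Entpd1 (vehicle replicate 1 or S. aureus replicates 2, 3 or 4) and in 5 for Tfpi2 (vehicle replicates 1 or 3 or S. aureus replicates 2, 3 or 4). The adjusted p then reached 0.079 and 0.0879. The Tfpi2 call against A. faecalis was lost in 5 fits (A. faecalis replicate 2, 3 or 4, or S. aureus replicate 3 or 4, adjusted p up to 0.0683), and that of Entpd1 in none. Anxa5, Pros1 (protein S, the cofactor of activated protein C) and Nos3 (endothelial nitric oxide synthase) were not called, with 311 ± 69.5, 146 ± 16.2 and 34.1 ± 9.48 CPM in vehicle wounds and 249 ± 20.5, 170 ± 8.88 and 42.2 ± 1.53 CPM with S. aureus. The 11 genes had median log2 fold changes of -0.13, 0.06 and 0.23.

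The 4 protease-activated receptors, through which thrombin and other proteases signal to cells, held no called gene in any comparison by edgeR, DESeq2 or limma-voom. By edgeR 1 of the 4 had an unadjusted p under 0.05 for A. faecalis against vehicle and 0 in each of the other comparisons. F2r, the main thrombin receptor, was at 35.5 ± 10.6, 29.4 ± 5.19 and 34.4 ± 3.32 CPM with vehicle, A. faecalis and S. aureus. F2rl1, the receptor cut by trypsin-like proteases, was at 11.2 ± 1.66, 8.97 ± 0.842 and 10.8 ± 1.78 CPM, and F2rl2 at 3.06 ± 0.505, 2.98 ± 0.214 and 3.75 ± 0.68 CPM. The median log2 fold changes of the 4 were -0.15, 0.13 and 0.30. Between A. faecalis and vehicle, 0 genes of the 4 lists were called by edgeR, DESeq2 or limma-voom. An unadjusted edgeR p under 0.05 was found in 4 of 18 plasminogen system genes, 3 of 10 clotting genes and 0 of 11 anticoagulants, beside 7.68% of all genes. Of the plasminogen system and clotting genes with such a p, Hpn and F13a1 were higher with A. faecalis, and Anxa2, S100a10 and F5 were lower. The rest had means of at most 0.371 CPM in both groups.

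**Figure D4:**
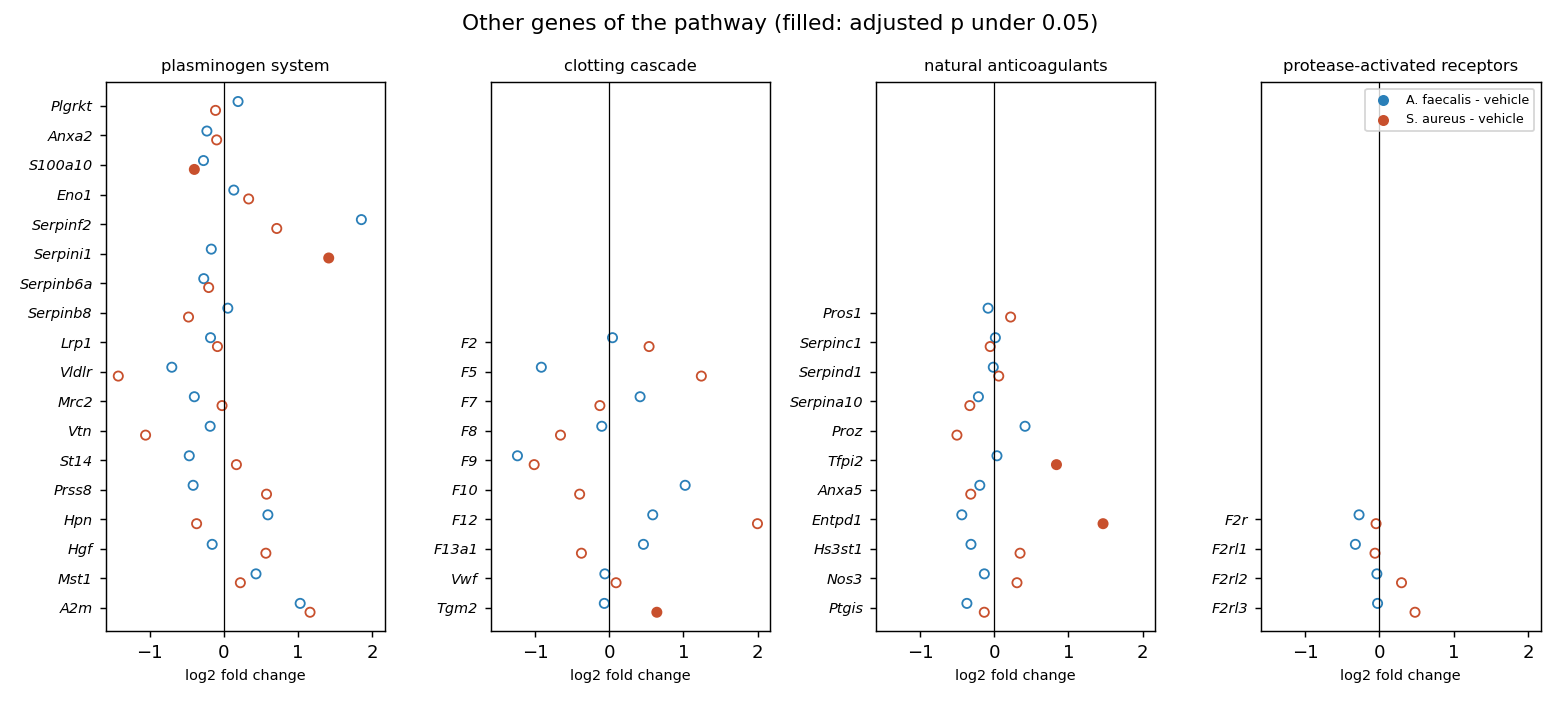
Log2 fold change (horizontal axis) of the other pathway genes tested, by list, for A. faecalis and S. aureus against vehicle, with filled points for adjusted p under 0.05. Filled points are S. aureus only, with Serpini1, Tgm2, Entpd1 and Tfpi2 to the right of 0 and S100a10 to the left.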

How the data were processed

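Per the labels' protocols, stranded libraries were made from total RNA of pulverized frozen skin after removal of ribosomal RNA. The authors deposited estimated counts per gene, made with kallisto 0.48.0 on build GRCm39 per the submitters' processing notes, which also name FastQC 0.12.1, R 4.1.3 and DESeq2 1.34.0. Kallisto divides reads shared by similar transcripts. The sources used here do not say how transcripts were summed to genes.

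Estimated counts were rounded. The 1 unnamed entry was left out. EdgeR 4.0.16 (R 4.3.3) fitted all 12 libraries with a mean per group (TMM, filterByExpr with minimum count 10 and minimum total 15, robust quasi-likelihood test, two-sided, Benjamini-Hochberg adjustment). DESeq2 1.42.0, limma-voom (limma 3.58.1), other scalings and filters, a replicate block and left-out libraries were alternatives. The edgeR script was tested on simulated data. Intervals are edgeR estimates ± the t quantile times the SE.

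By rule the text names the 9 members, pathway genes that were called, up to 3 more per list by highest mean CPM, and the 3 genes most like each member (mean of at least 1 CPM, standard symbol). Members and lists were chosen with earlier results of these data known. Of 123 list and marker symbols all were found, 1 of them under an older name (Emr1). Replicates of a group differed by a chi-square of 28 to 460 per degree of freedom, so none looked deposited under 2 names. The labels do not say what a replicate number stands for. Deviations from the group means correlated by 0.109 to 0.32 in the 4 same-numbered pairs of A. faecalis and vehicle, all over 0.1. The best-correlated vehicle library had the same number only for A. faecalis replicate 4, so pairing by number was not established. The main fit had no block, and the replicate block changed no call of a member in that comparison.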

Additional observations from a re-analysis of the deposited data

Results flagged for a closer look

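Among the 27 sets of 4 libraries looked at (9 genes in 3 groups), Plau with S. aureus had 1 library far from the rest. S. aureus replicate 2 was at 62.2 CPM, where the other 3 were at 73.2 to 75 CPM, a gap of 0.86 of the whole range. Chance gives such a gap in about 1 of 20 sets, so 1 of 27 is no more than that. Its distance from the others is small beside the spread of Plau in vehicle (52.7 to 117 CPM).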

How the results depend on the processing

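Against vehicle, the number of members called with S. aureus was 2, and it was 5 by DESeq2 (Plaur, F3, Tfpi, Thbd and Procr), 1 when only the 2 groups were fitted (Plaur) and 1 to 3 when single libraries were left out. It was 0 in every setting for A. faecalis against vehicle, and 3 or 4 in every setting for S. aureus against A. faecalis. Without vehicle replicate 1 Tfpi was also called with S. aureus against vehicle, and Procr was called when vehicle replicate 2, vehicle replicate 4 or A. faecalis replicate 1 was left out and with a mean of at least 1 CPM. Over all genes the counts were 2, 1246 and 2310, and by DESeq2 120, 2876 and 3474. With 1 library left out they ran from 2 to 10, 260 to 1750 and 1313 to 3457, and with only the 2 groups fitted the second was 350. Directions that turned did so only when 1 library was left out, and only in values that were not called. The log2 fold changes then ran, for A. faecalis against vehicle, from -0.17 to 0.095 (Plat), -0.14 to 0.095 (Thbd) and -0.34 to 0.071 (Serpine2). For S. aureus against vehicle they ran from -0.18 to 0.086 (Plat), -0.015 to 0.54 (Serpinb2), -0.30 to 0.11 (Plau) and -0.24 to 0.18 (Serpine2), and for S. aureus against A. faecalis from -0.091 to 0.10 (Plat). The cause was not tested. Same-numbered libraries correlated by -0.322 to 0.144 in the pairs with S. aureus, and the best partner had the same number in 2 of all 12 pairs. Pairing by number was thus not established in any comparison. With the replicate number as a block, 0, 2 and 4 members were called in the 3 comparisons, the added one being Plau for S. aureus against A. faecalis (adjusted p = 0.0488), and no other call of a member changed. The lowest depth behind a member was 926 counts (Procr in A. faecalis replicate 4).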
